A study of Gallus gallus with 2 samples.

Results

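The nuclei described here came from chicken (Gallus gallus) thymus and were chosen because they carried transcripts of CXCR4, SOX4, HIVEP3, TNFRSF25, TMEM132A and RAPH1. A barcode was a member when it had at least 200 detected genes and at least 3 unique molecular identifiers (UMIs, 1 per captured transcript) summed over those 6 marker genes. It also needed at most 3 UMIs summed over NR4A3, TNFRSF9, TNFRSF4 and TNFRSF18, and 0 UMIs of GNLY, SOX13, CACNA1C, FOXN1, PAX5 and EBF1. Of 10745 barcodes, 1328 were members, 614 of 5171 in replicate 1 and 714 of 5574 in replicate 2. Both libraries are thymus of female birds at 5 weeks of age, flash frozen and profiled by droplet single-nucleus RNA sequencing. The labels give no treatment, strain or genotype and do not say whether the libraries came from separate birds. The p-values therefore measure only how far the difference between groups varied across these libraries, pooled over genes. That spread may be technical. All comparisons are therefore between groups of barcodes within the same libraries.

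T cell precursors in the thymus first cut and rejoin the genes of their receptor chains, with the RAG1 and RAG2 recombinase making the breaks and the DNTT polymerase adding bases at the joints. Cells whose new receptor binds self peptide weakly are kept in positive selection, cells that bind strongly are removed, and receptor signals switch on genes such as EGR1, EGR3, NR4A2 and CD5. In mouse, CXCR4, the receptor of the chemokine CXCL12, holds precursors in the cortex, while CCR7 draws selected cells to the medulla. SOX4 is a transcription factor of lymphocyte precursors, HIVEP3 (also called Schnurri-3) is a large zinc-finger protein, TNFRSF25 is a death receptor of the TNF receptor family, TMEM132A is a membrane protein, and RAPH1 (lamellipodin) recruits actin regulators to the cell edge.

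On the GRCg7b assembly, in RefSeq coordinates matched by symbol, CXCR4 lies on chromosome 7 from 30380917 to 30383608 and RAPH1 on the same chromosome from 13124670 to 13210266. SOX4 lies on chromosome 2 from 58615032 to 58616520. HIVEP3 spans 217171 bases of chromosome 23, from 1079261 to 1296431, the longest of the 6. TNFRSF25 lies on chromosome 21 from 590835 to 594909, and TMEM132A on chromosome 5 from 236081 to 241335.

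The deposited libraries held 6564 barcodes with 4826743 UMIs in replicate 1 and 6050 barcodes with 6570941 UMIs in replicate 2, of which 1393 and 476 barcodes had fewer than 200 genes. Members were somewhat deeper than the rest. Their median was 775 UMIs and 508 genes in replicate 1, against 682 UMIs and 472 genes in the other barcodes of that library. In replicate 2 the median was 986.5 UMIs and 638.5 genes in members, against 841.5 UMIs and 559 genes in other barcodes. A doublet score marked 69 and 82 members, 11.2% and 11.5%, among the top 6% of barcodes of each library, and the deepest member had 14638 UMIs. The libraries shared 13 barcode sequences, 11 of them among the barcodes kept and 0 among members.

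Members made up 11.9% of barcodes in replicate 1 (exact 95% binomial interval 11% to 12.8%) and 12.8% in replicate 2 (11.9% to 13.7%), a mean of 12.3% ± 0.662 (SD, n = 2). These intervals, like all others here, cover counting error only. The marker sum alone was met by 792 and 998 barcodes in replicates 1 and 2. The NR4A3 and TNF receptor limit removed 61 and 113 of these, and the 6 genes required at 0 removed 124 and 198, with 7 and 27 removed by both. The share follows depth: when the rule was applied after thinning each nucleus to 500 UMIs, 6.84% of barcodes were members.

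HIVEP3 carried the largest part of the marker signal. These marker values chose the members and are given as a description. HIVEP3 supplied 59.1% of the members' marker UMIs in replicate 1 and 46.6% in replicate 2, and 80.1% and 70.2% of members had at least 1 HIVEP3 UMI, against 13.1% and 13.0% of other barcodes. RAPH1 was next, found in 44.3% and 55.5% of members and in 15.8% and 14.4% of other barcodes. CXCR4, the first gene of the name, was found in 14.2% and 20.6% of members, against 3.27% and 4.14% of other barcodes, so most members had no CXCR4 UMI at this depth. SOX4 was found in 30.6% and 39.8% of members and in 6.01% and 8.37% of other barcodes. TNFRSF25 was found in 29.5% and 37.1% of members and in 5.90% and 8.81% of other barcodes. TMEM132A was found in 18.2% and 22.7% of members and in 3.51% and 3.74% of other barcodes.

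**Figure D1:**
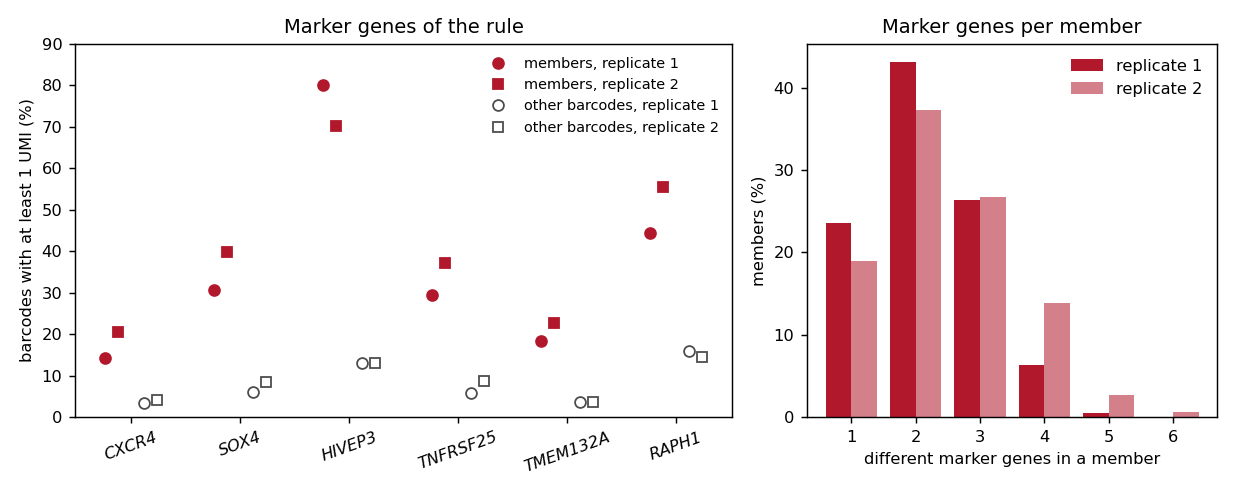
Left, the percentage of barcodes with at least 1 UMI of each marker gene in members (filled) and in all other barcodes (open), circles for replicate 1 and squares for replicate 2. Right, the percentage of members by number of different marker genes found. HIVEP3 was found in 80.1% and 70.2% of members and CXCR4 in 14.2% and 20.6%, and members with 2 different marker genes were the most frequent in both libraries.

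With levels scaled to CPM, the UMIs of a gene relative to all UMIs of the group, HIVEP3 reached 3256 and 2072 CPM in members, against 322 and 337 CPM in other barcodes. SOX4 reached 454 and 536 CPM in members and 87.4 and 107 CPM in other barcodes, and CXCR4 221 and 233 CPM in members and 44.0 and 49.7 CPM in other barcodes. Most members carried more than 1 of the marker genes. A single marker gene qualified 145 and 135 members. For 93 and 57 of them that gene was HIVEP3, and for 35 and 57 it was RAPH1. At least 3 different marker genes were found in 204 and 313 members, and all 6 in 0 and 4. CXCR4 and SOX4 were found together in 20 members of replicate 1 and 58 of replicate 2, 3.26% and 8.12% of members.

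The part of each marker's level that does not come from its own use in the rule is seen by redefining members without it. With CXCR4 left out of the sum, 576 and 674 barcodes still met the rule and held 120 and 168 CPM of CXCR4, against 60.0 and 61.3 CPM in the barcodes left outside. With HIVEP3 left out, 252 and 454 barcodes met the rule and held 2016 and 1658 CPM of HIVEP3, against 628 and 472 CPM outside. SOX4 gave 291 and 369 CPM in members chosen without it and 115 and 139 CPM outside. Each of the 6 markers was higher in both libraries among members chosen by the other 5, which is a description of how the 6 genes occur together in these nuclei.

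The name post-recombination thymocytes held only in part. RAG1, RAG2 and DNTT were lower in members than in all other barcodes but were not absent. RAG1 stood at 235 and 161 CPM in members, against 336 and 326 CPM in other barcodes, a log2 fold change of -0.75 ± 0.12 (SE, adjusted p = 8.18e-09, edgeR's quasi-likelihood F-test, with Benjamini-Hochberg correction across 11117 genes). RAG2 stood at 93.2 and 60.2 CPM in members and 123 and 144 CPM in other barcodes (-0.82 ± 0.18, adjusted p = 5.72e-05). DNTT stood at 1292 and 1287 CPM in members and 1985 and 2352 CPM in other barcodes (-0.72 ± 0.07, adjusted p = 7.50e-21). For all 3 genes both member values lay below both values of the other barcodes. Such separation of values, here and below, is a description only. How often it occurred over all genes tested was not counted. Set against only the other barcodes that also met the other limits of the rule, the differences were larger. They were -1.19 for RAG1 (adjusted p = 4.87e-21), -1.30 for RAG2 (adjusted p = 1.09e-11) and -1.13 for DNTT (adjusted p = 1.65e-60).

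At least 1 UMI of RAG1, RAG2 or DNTT was found in 23.0% of members in replicate 1 (exact 95% interval 19.7% to 26.5%) and 27.2% in replicate 2 (23.9% to 30.6%), against 38.5% and 45.8% of other barcodes. Barcodes with at least 3 UMIs of FOXN1, PAX5 and EBF1, genes of epithelium and B cells that should lack these transcripts, had such a UMI in 1.83% and 1.69% of cases at median depths of 1739 and 2648 UMIs. The members' share lay above the share in these barcodes. How far RNA from other nuclei or doublets contributed to the members' share was not tested. After thinning to 500 UMIs the shares were 21.6% and 24.3% in members and 34.0% and 41.9% in other barcodes, and the thinning left out 147 and 75 members and 1255 and 853 other barcodes.

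Recombinase levels varied with HIVEP3 among the members. Among members with 0 HIVEP3 UMIs, 122 and 213 barcodes, DNTT stood at 2504 and 2145 CPM and RAG1 at 511 and 352 CPM, against 1985 and 2352 CPM of DNTT and 336 and 326 CPM of RAG1 in all other barcodes. Barcodes with 0 marker UMIs within the other limits of the rule, described below, held more DNTT than these members in both libraries. Among members that qualified by HIVEP3 alone, DNTT stood at 837 and 505 CPM and RAG1 at 85.9 and 24.0 CPM. Among members with a CXCR4 UMI the libraries differed, with RAG1 at 781 CPM in replicate 1 and 77.9 CPM in replicate 2. With HIVEP3 left out of the marker sum, a setting chosen after the data were seen, RAG1 (log2 fold change -0.14, adjusted p = 0.709), RAG2 (-0.25, adjusted p = 0.589) and DNTT (-0.27, adjusted p = 0.0729) no longer passed the test. That setting also moves every member that needed its HIVEP3 UMIs to reach 3 marker UMIs into the other barcodes. It leaves 252 of 614 and 454 of 714 members, so both sides of the comparison change.

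Levels ran with the number of marker UMIs in a barcode, within the barcodes that met the other limits of the rule. DNTT stood at 2735 and 3817 CPM at 0 marker UMIs, at 1688 and 1896 CPM at 2 and at 747 and 929 CPM at 7 or more, though not in even steps, since replicate 1 had 1938 CPM at 4. CD5, a surface receptor that dampens T cell receptor signals and follows their strength in mouse, stood at 51.5 and 72.4 CPM at 0 marker UMIs and at 410 and 660 CPM at 7 or more. TOX, a nuclear factor needed for the CD4 lineage in mouse, stood at 356 and 240 CPM at 0 and 1596 and 1859 CPM at 7 or more. The threshold fell within these gradients. Just inside it, at 3 marker UMIs, DNTT was at 1337 and 1866 CPM and CD5 at 285 and 322 CPM. Just outside it, at 2, DNTT was at 1688 and 1896 CPM and CD5 at 173 and 314 CPM.

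**Figure D2:**
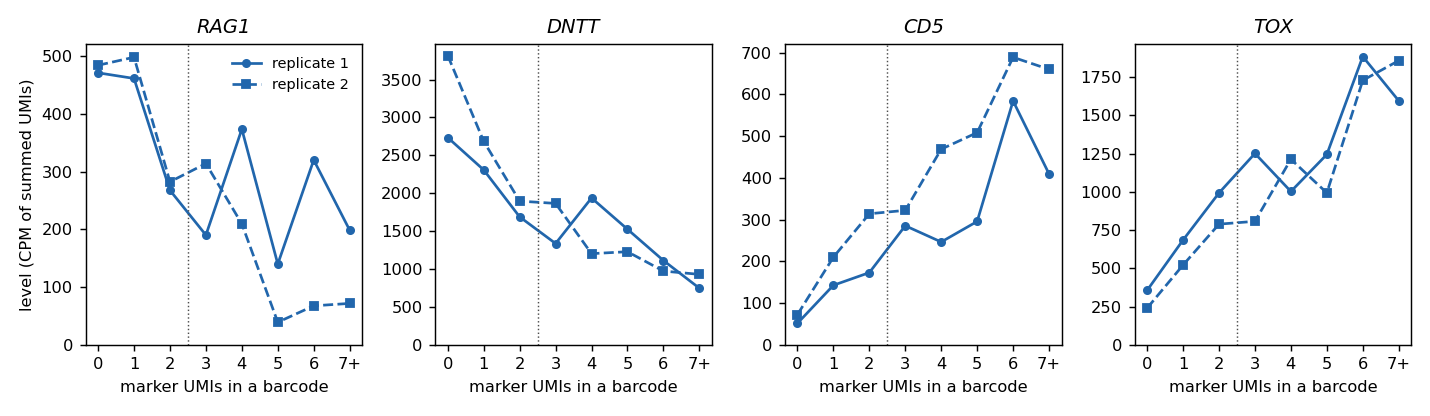
Levels of RAG1, DNTT, CD5 and TOX (CPM of summed UMIs) in barcodes grouped by their UMI sum over the 6 marker genes, for barcodes within the other limits of the rule, with circles and solid lines for replicate 1 and squares and dashed lines for replicate 2. Barcodes right of the dotted line are members. DNTT ran from 2735 and 3817 CPM at 0 to 747 and 929 CPM at 7 or more, and CD5 from 51.5 and 72.4 CPM to 410 and 660 CPM.

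Across all genes, fewer genes were higher than lower in members. Of 11117 genes tested, 1807 passed the test, 16.3%, with 569 higher in members (5.12%) and 1238 lower (11.1%). The 16 genes of the rule were left out of the test. The other genes were counted in the same nuclei, so p-values of genes that vary with those 16 are not independent of the choice of members. Of the 1238 lower genes, 160 had 0 UMIs in members of both libraries and 413 had 1 to 10. Set against only those other barcodes that also met the limits of the rule, 636 of 9969 genes tested were higher and 695 lower. Of the 11117 genes DESeq2 called 265 higher and 442 lower. The counts in the gene lists below are to be read beside the 5.12% higher and 11.1% lower over all genes tested. Those against the others within the limits of the rule are to be read beside 636 and 695 of 9969.

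Of the 12 highest genes, CD5 and CD6 belong to the receptor complex list and ICOS, EGR3 and NR4A2 to the selection response list. ICOS, a costimulatory receptor, had 165 and 141 CPM in members and 50.5 and 37.1 CPM in other barcodes (log2 fold change 1.85 ± 0.19, adjusted p = 1.15e-20). CD5 had 340 and 510.4 CPM in members and 92.5 and 152 CPM in other barcodes (1.83 ± 0.11, adjusted p = 1.74e-54). EGR3, a zinc-finger factor induced by receptor signals, had 226 and 242 CPM in members and 57.3 and 90.1 CPM in other barcodes (1.70 ± 0.15, adjusted p = 5.69e-29). For these 3 genes every member value lay above every value of the other barcodes. CD6, a relative of CD5, had 68.3 and 82.1 CPM in members and 21.2 and 30.1 CPM in other barcodes (1.58 ± 0.26, adjusted p = 6.41e-08). ID3, which blocks E protein transcription factors, had 89.9 and 95.3 CPM in members and 18.9 and 48.8 CPM in other barcodes (1.51 ± 0.23, adjusted p = 2.63e-09). The libraries differed for ID3, whose log2 difference was 2.17 in replicate 1 and 0.90 in replicate 2.

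The other genes of the 12 were METRNL, a secreted factor (1.68), PPP1R16B, a regulatory subunit of protein phosphatase 1 (1.50), the orphan nuclear receptor NR4A2 (1.50), GRAPL (1.49), the troponin gene TNNT3 (1.47), TMEM161B (1.44) and DUSP16, a phosphatase of MAP kinases (1.43). Their log2 fold changes passed the test with adjusted p between 7.89e-29 for PPP1R16B and 0.000726 for NR4A2. NR4A2 rested on 28 and 34 UMIs in members. METRNL (0.62, adjusted p = 0.500) and GRAPL (0.82, adjusted p = 0.271) did not pass with HIVEP3 left out of the marker sum.

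The 12 lowest genes all had 0 UMIs in members of both libraries. TENM2, an adhesion protein of the teneurin family, had 117 and 123 CPM in other barcodes and was at least 23.4-fold lower in members, taking 3 counts per library as the floor. ZNF385B was at least 9.0-fold lower, the netrin receptor UNC5C at least 8.50-fold and the mechanosensitive channel PIEZO2 at least 6.47-fold. The rest were ADGRA1, PCDH7, DAAM2, LDB3, OCM1, DPP4, COL14A1 and EPHA7, at least 5.77-fold to 3.24-fold lower. The rule keeps barcodes with FOXN1, PAX5, EBF1, SOX13, GNLY or CACNA1C out of the members and leaves them among the other barcodes.

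The genes of V(D)J recombination were lower or did not pass. Of 10 tested, 0 were higher, 4 lower and 6 did not pass, with a median log2 fold change of -0.15, against -0.03 over all genes tested. Beside RAG1, RAG2 and DNTT the fourth was LIG4, the ligase that seals the breaks, at 64.9 and 24.1 CPM in members and 104 and 73.5 CPM in other barcodes (-1.06 ± 0.23, adjusted p = 6.36e-05). The general repair genes PRKDC (-0.12, adjusted p = 0.624) and XRCC5 (-0.04, adjusted p = 0.936) did not pass. With HIVEP3 left out of the marker sum, LIG4 was at -0.32 (adjusted p = 0.567), so none of the 4 lower genes of the list passed under that setting.

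Of 9 tested genes of the coreceptor and receptor complex list, 6 were higher, 0 lower and 3, CD4, CD8A and the signalling chain CD247 (0.12, adjusted p = 0.388), did not pass (median 0.57). CD28, a costimulatory receptor, had 1094 and 877 CPM in members and 528 and 388 CPM in other barcodes (1.15 ± 0.08, adjusted p = 2.98e-39). CD3E, a signalling chain of the receptor, had 325 and 412 CPM in members and 204 and 286 CPM in other barcodes (0.62 ± 0.11, adjusted p = 2.04e-07). CD4 had 236 and 347 CPM in members and 287 and 362 CPM in other barcodes (-0.12 ± 0.11, adjusted p = 0.562), and CD8A 176 and 211 CPM in members and 201 and 234 CPM in other barcodes (-0.13 ± 0.13, adjusted p = 0.604). Set against only the other barcodes within the limits of the rule, CD4 (-0.57) and CD8A (-0.55) were lower and passed. CD8BP, chosen after its values were seen, had 181 and 356 CPM in members and 327 and 461 CPM in other barcodes (-0.53 ± 0.11, adjusted p = 1.61e-05), but did not pass with HIVEP3 left out of the marker sum.

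Coreceptor transcripts were sparse in single nuclei. No UMI of CD4, CD8A or CD8BP was found in 78.8% and 55.6% of members, against 67.7% and 49.4% of other barcodes. CD4 with CD8A or CD8BP was found in 4.40% and 12% of members and 5.27% and 14.6% of other barcodes. After thinning these shares were 2.14% and 4.54% in members and 3.21% and 7.31% in other barcodes. Members held barcodes of every coreceptor class, and both shares differed more between the libraries than between members and other barcodes.

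Signalling genes below the receptor were more often higher than lower. Of 24 tested, 10 were higher, 1 lower and 13 did not pass (median 0.35). The inhibitory phosphatase PTPN6 had 255 and 171 CPM in members and 92.5 and 77.8 CPM in other barcodes (1.33 ± 0.15, adjusted p = 1.35e-17). THEMIS, needed for positive selection in mouse, had 1689.8 and 2013 CPM in members and 972 and 1010.2 CPM in other barcodes (0.93 ± 0.07, adjusted p = 4.97e-34). UBASH3A, a suppressor of receptor signals, was also higher (0.85 ± 0.14, adjusted p = 2.68e-08). The adaptors GRAP2 (-0.19, adjusted p = 0.0540) and SKAP1 (0.09, adjusted p = 0.543) did not pass, although GRAP2 was lower against the others within the limits of the rule (-0.48, adjusted p = 7.93e-10).

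Of 18 tested genes of the selection response, 9 were higher, 0 lower and 9 did not pass (median 0.58). EGR1, an early target of receptor signals, had 33.3 and 55.9 CPM in members and 5.81 and 11.2 CPM in other barcodes (2.42 ± 0.42, adjusted p = 3.08e-07). It rested on 20 and 51 UMIs in members. ICOS, EGR3 and NR4A2, above, were the others with the largest changes. NFKB1 (0.23, adjusted p = 0.300) and the inhibitory receptor PDCD1 (0.23, adjusted p = 0.663) did not pass, although NFKB1 was higher against the others within the limits of the rule (0.49, adjusted p = 0.0112). The rule caps NR4A3 and 3 TNF receptors that respond to the same signals, so members were limited from above in this respect.

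Among 35 transcription factors tested, 16 were higher, 6 lower and 13 did not pass (median 0.26). MAF had 79.9 and 107 CPM in members and 45.0 and 35.3 CPM in other barcodes (1.29 ± 0.22, adjusted p = 1.36e-07). ZBTB7B, the factor of the CD4 lineage in mouse, had the largest increase of the list (2.93 ± 0.89, adjusted p = 0.00869) but rested on 5 and 12 UMIs in members and 2 and 13 UMIs in other barcodes, and it did not pass without the doublet-scored barcodes. NFIA was lower, at 11.7 and 23.0 CPM in members and 238 and 271 CPM in other barcodes (-3.78 ± 0.21, adjusted p = 1.94e-68). Against the other barcodes within the limits of the rule the NFIA difference was smaller (-1.78, adjusted p = 2.63e-07). BCL11A (-2.29 ± 0.30, adjusted p = 8.23e-13) and KLF6 (-1.88 ± 0.41, adjusted p = 8.30e-05) were lower too, but neither passed against the other barcodes within the limits of the rule. RUNX1 (0.01, adjusted p = 0.940) and FOXP1 (-0.01, adjusted p = 0.952), the most abundant of those that did not pass, differed little.

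TOX, TCF7 and SATB1, chosen after their values were seen, were among the 16 higher factors. TOX had 1353 and 1309.9 CPM in members and 628 and 507 CPM in other barcodes (1.27 ± 0.08, adjusted p = 2.69e-54). TCF7, a factor of T cell identity, had 6364 and 8047 CPM in members and 3115 and 4260.1 CPM in other barcodes (1.00 ± 0.06, adjusted p = 1.70e-56). SATB1, an organiser of chromatin in thymocytes, had 4438 and 5315 CPM in members and 3250 and 3408 CPM in other barcodes (0.58 ± 0.06, adjusted p = 6.36e-18). All 3 were separated by group in both libraries. They are not among the 130 named genes followed across alternative settings, so no test under those settings is given for them.

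**Figure D3:**
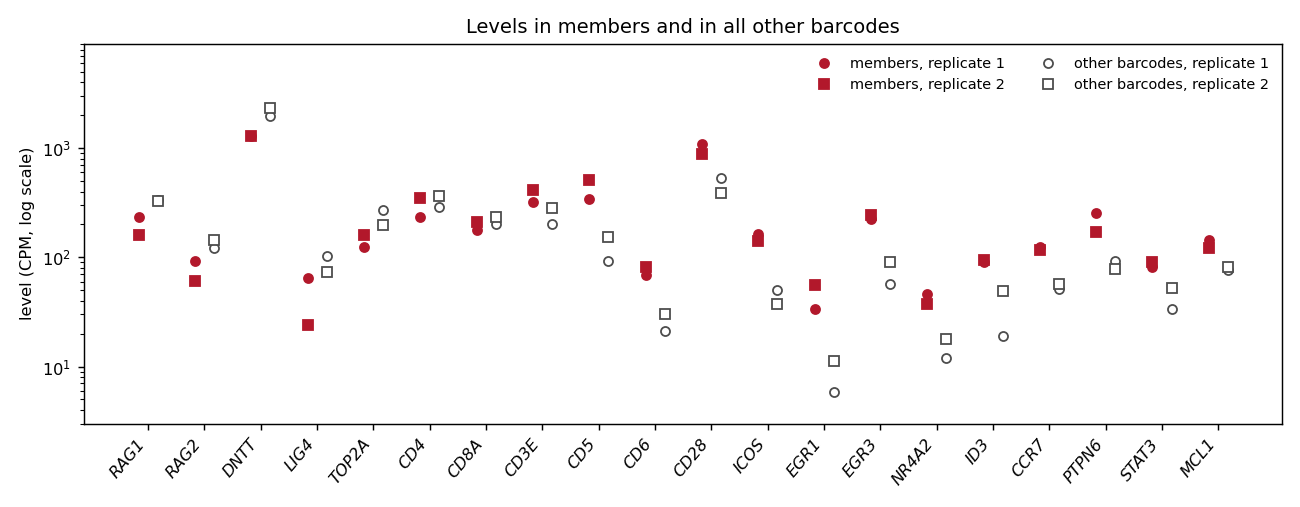
Levels (CPM, log scale) of recombination, cycle, coreceptor, signalling, migration, cytokine and survival genes in members (filled) and in all other barcodes (open), with circles for replicate 1 and squares for replicate 2. RAG1, RAG2, DNTT, LIG4 and TOP2A lay lower in members of both libraries, CD4 and CD8A overlapped, and CD5, ICOS, EGR3 and PTPN6 lay higher.

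Of 14 migration genes tested, 2 were higher, 1 lower and 11 did not pass (median -0.19). CCR7 had 125 and 117 CPM in members and 51.0 and 57.5 CPM in other barcodes (1.18 ± 0.19, adjusted p = 3.15e-08). Both CCR7 values of members lay above both values of the other barcodes. ITGB2, the beta chain of the LFA-1 integrin, was higher (0.35 ± 0.10, adjusted p = 0.00517) but did not pass with HIVEP3 left out of the marker sum. CXCL12, the ligand of CXCR4, had 0 and 4 UMIs in members and stood at 69.0 and 80.7 CPM in other barcodes. Those other barcodes include the ones with FOXN1 UMIs, which the rule keeps out of the members. Against the others within the limits of the rule, CXCL12 was at -2.36 (adjusted p = 0.0324). The integrin chain ITGA4 (0.19, adjusted p = 0.0893) and SEMA4D (0.10, adjusted p = 0.736) did not pass.

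Regulators of actin and adhesion, the field in which RAPH1 acts, were higher in 9 of 20 cases, lower in 3 and did not pass in 8 (median 0.29). ARPC2, a subunit of the Arp2/3 complex, had 79.9 and 87.6 CPM in members and 47.7 and 42.0 CPM in other barcodes (0.95 ± 0.22, adjusted p = 0.000275). TLN1, which links integrins to actin, had 78.2 and 126 CPM in members and 33.9 and 75.9 CPM in other barcodes (0.94 ± 0.20, adjusted p = 5.64e-05). ARHGAP15 (0.87 ± 0.06, adjusted p = 1.34e-38) and DOCK2 (0.83 ± 0.08, adjusted p = 1.41e-21), regulators of Rac, were higher as well. TLN1 did not pass with HIVEP3 left out of the marker sum (0.41, adjusted p = 0.406). CD44 (0.04, adjusted p = 0.863), which passed as higher against the others within the limits of the rule (0.29, adjusted p = 0.0177), and RAPGEF2 (-0.06, adjusted p = 0.789) did not pass.

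Cytokine receptors and their JAK-STAT partners gave 4 higher, 0 lower and 16 not passing among 20 tested (median 0.05). They were IL21R (1.23 ± 0.36, adjusted p = 0.00582), STAT3 (1.03 ± 0.22, adjusted p = 7.13e-05), JAK3 (0.93 ± 0.19, adjusted p = 1.55e-05) and TGFBR2 (0.76 ± 0.08, adjusted p = 1.33e-17). With HIVEP3 left out of the marker sum, IL21R (0.94, adjusted p = 0.176) and STAT3 (0.70, adjusted p = 0.0846) did not pass. STAT3 had 81.6 and 89.8 CPM in members and 33.6 and 52.1 CPM in other barcodes. The kinase JAK1 (0.10, adjusted p = 0.551) and STAT4 (-0.09, adjusted p = 0.710) did not pass. IL7R, the receptor of mature and early T cells, had 117 and 97.5 CPM in members and 119 and 98.2 CPM in other barcodes (0.01 ± 0.17, adjusted p = 0.992).

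Of 21 genes of survival, death and TNF receptor signalling, the pathway of the marker TNFRSF25, 4 were higher, 1 lower and 16 did not pass (median 0.01). TNFRSF1B, a TNF receptor, had 76.6 and 59.1 CPM in members and 38.4 and 31.2 CPM in other barcodes (0.99 ± 0.25, adjusted p = 0.00111). MCL1, which holds off cell death, had 145 and 123 CPM in members and 77.3 and 80.9 CPM in other barcodes (0.77 ± 0.17, adjusted p = 9.58e-05). The adaptors TRAF5 (0.61, adjusted p = 0.00703) and TRAF3 (0.53, adjusted p = 0.000500) were the others that rose. With HIVEP3 left out of the marker sum, none of the 4 passed: TNFRSF1B was at 0.82 (adjusted p = 0.0690), MCL1 at 0.52 (adjusted p = 0.0927), TRAF5 at 0.36 (adjusted p = 0.420) and TRAF3 at 0.27 (adjusted p = 0.390). BCL2 (-0.16, adjusted p = 0.168) and CFLAR (0.04, adjusted p = 0.938) did not pass.

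Genes of the cell cycle were lower or did not pass. Of 22 tested, 0 were higher, 11 lower and 11 did not pass (median -0.54). TOP2A, the topoisomerase of dividing cells, had 125 and 159 CPM in members and 270 and 196 CPM in other barcodes (-0.63 ± 0.13, adjusted p = 4.49e-05). CDK1, the kinase that starts mitosis, had 28.3 and 29.6 CPM in members and 65.9 and 49.7 CPM in other barcodes (-0.93 ± 0.27, adjusted p = 0.00684). RRM1 (-0.84, adjusted p = 0.0472) and RRM2 (-0.74, adjusted p = 0.0379), the subunits of ribonucleotide reductase, were lower. HELLS (-0.23, adjusted p = 0.491) and ATAD2 (-0.18, adjusted p = 0.541) did not pass. CDK1, RRM1 and RRM2 did not pass with HIVEP3 left out of the marker sum.

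In the Notch pathway 3 of 14 genes were higher, 3 lower and 8 did not pass (median -0.01). The receptor NOTCH2 had 271 and 275 CPM in members and 134 and 158 CPM in other barcodes (0.93 ± 0.12, adjusted p = 3.38e-12). The transcription partner RBPJ was higher (0.39 ± 0.13, adjusted p = 0.0163), while NOTCH1 (-0.01, adjusted p = 0.979) and the protease ADAM10 (-0.02, adjusted p = 0.964) did not pass. RBPJ did not pass with HIVEP3 left out of the marker sum (0.11, adjusted p = 0.842), nor did JAG1 (adjusted p = 0.131). The ligand genes JAG1, with 0 UMIs in members, and DLL4, with 0 and 6, were lower. Against the others within the limits of the rule, which like members have 0 FOXN1 UMIs, 3 of 13 Notch genes were higher and 0 lower, with DLL4 at -0.58 (adjusted p = 0.823). In the Wnt pathway 2 of 15 genes were higher, 4 lower and 9 did not pass (median -0.25). TCF7L2 (-1.77 ± 0.19, adjusted p = 1.35e-18), the receptor LRP5 (-1.28 ± 0.34, adjusted p = 0.00226) and CTNNB1 (-0.70 ± 0.21, adjusted p = 0.00878) were lower, and the receptor FZD6 had 0 UMIs in members. CTNNB1 (-0.39, adjusted p = 0.424) and LRP5 (-1.22, adjusted p = 0.0505) did not pass with HIVEP3 left out. AXIN1 (0.05, adjusted p = 0.878) and APC (-0.01, adjusted p = 0.978) did not pass.

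**Figure D4:**
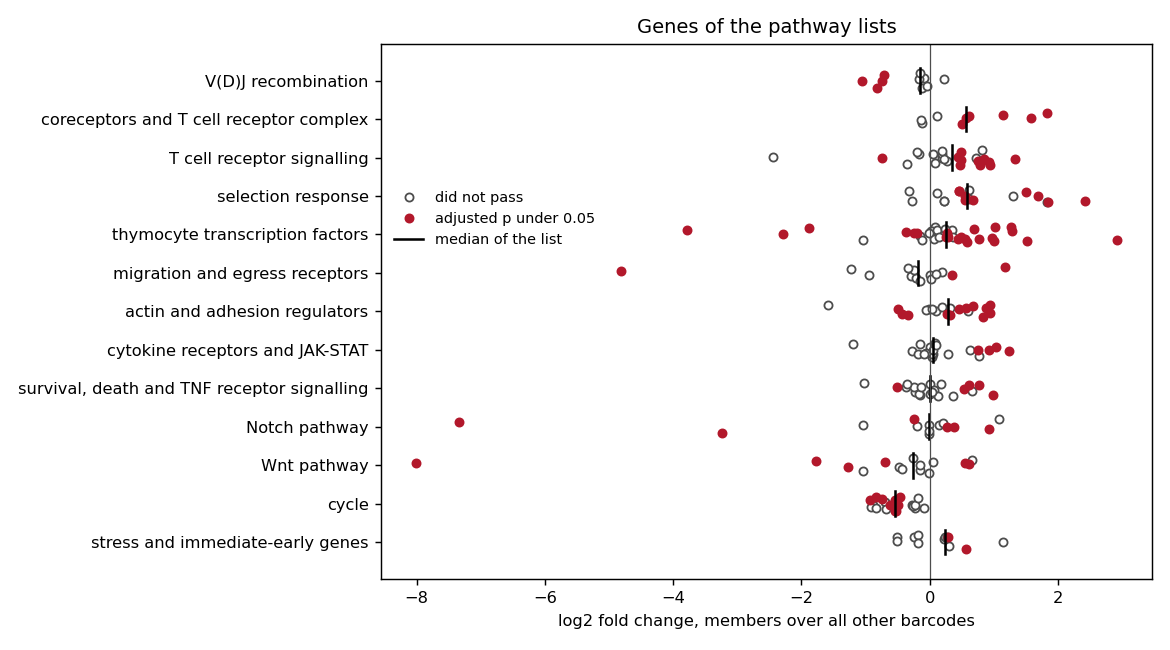
Log2 fold changes of members over all other barcodes for the tested genes of 13 pathway lists, filled where the adjusted p was under 0.05 and open where it was not, with a bar at the median of each list. The points of the cycle list lie left of 0 (median -0.54), those of the selection response mostly right of it (median 0.58), and the leftmost points of the Notch and Wnt lists are JAG1 and FZD6, at 0 UMIs in members.

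Stress genes, which can move with the handling of tissue, were higher in 2 of 12 cases, lower in 0 and did not pass in 10 (median 0.24). SESN1 had 613 and 493 CPM in members and 369 and 384 CPM in other barcodes (0.57 ± 0.09, adjusted p = 4.72e-08), and the chaperone HSPA5 had 411 and 451 CPM in members and 358 and 367 CPM in other barcodes (0.28 ± 0.10, adjusted p = 0.0293). HSP90AA1 (0.23, adjusted p = 0.0780) and HSPA8 (0.30, adjusted p = 0.115) did not pass. Against the others within the limits of the rule, HSP90AA1 (0.43, adjusted p = 0.000338) and HSPA8 (0.52, adjusted p = 0.00552) passed and HSPA5 (0.28, adjusted p = 0.0521) did not. With HIVEP3 left out of the marker sum, HSPA5 did not pass either (0.27, adjusted p = 0.201). The part of the stress genes in the other results was not tested.

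Markers of non-lymphoid cells are given as values, since the rule requires 0 UMIs of FOXN1, a gene of thymic epithelium, in members and not in the other barcodes. Thymic epithelium markers summed to 8.32 and 18.6 CPM in members and 178 and 187 CPM in other barcodes, with 4 of 4 tested genes lower. KRT5, KRT18, PAX1 and KRT14 were at 0 UMIs in members of both libraries. Macrophage markers summed to 13.3 and 30.7 CPM in members and 113 and 128 CPM in other barcodes, with 5 of 6 lower and MARCO and the C1Q genes at 0. Erythroid markers summed to 15.0 and 29.6 CPM in members and 128 and 50.3 CPM in other barcodes, with 2 of 4 lower. Dendritic cell markers summed to 228 and 234 CPM in members and 447 and 601 CPM in other barcodes, with 5 of 6 lower, among them CD74 (-2.75 ± 0.28, adjusted p = 1.87e-20). The class II genes BLB1 and BLB2 in this list are near-identical copies between which reads may be divided. Endothelial and fibroblast markers summed to 130 and 141 CPM in members and 159 and 158 CPM in other barcodes, with 2 of 4 lower, and PECAM1, at 118 and 133 CPM in members, made up most of the sum. Against the others within the limits of the rule, 1 of 2 tested epithelial genes, 4 of 6 macrophage, 5 of 6 dendritic, 1 of 3 erythroid and 0 of 2 endothelial and fibroblast genes were lower.

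Early T progenitor markers summed to 84.9 and 58.0 CPM in members and 153 and 146 CPM in other barcodes, with 3 of 6 lower. MEF2C (-3.24 ± 0.50, adjusted p = 3.16e-09) and SPI1 (-2.39 ± 0.67, adjusted p = 0.00363) were lower in members, but not past the test against the other barcodes within the limits of the rule. Mature T cell markers summed to 688 and 590.3 CPM in members and 567 and 526 CPM in other barcodes, with CCR7 the 1 of 7 that passed, higher. Against the others within the limits of the rule, FOXO1 also passed as higher (0.48, adjusted p = 0.00264), while IL7R (0.26, adjusted p = 0.453) and IL2RB (1.06, adjusted p = 0.234) did not pass. Gamma delta T cell markers other than SOX13 summed to 170 and 164 CPM in members and 128 and 119 CPM in other barcodes, with MAF the 1 of 3 that passed. BLK, a kinase of this list, did not pass against all other barcodes (-0.16, adjusted p = 0.743), was higher against those within the limits of the rule (1.28, adjusted p = 7.64e-05) and lower with HIVEP3 left out (-1.33, adjusted p = 0.00021). B cell markers outside the rule summed to 48.3 and 54.8 CPM in members and 53.1 and 68.6 CPM in other barcodes, and innate-like lymphocyte markers to 31.6 and 28.5 CPM in members and 29.6 and 30.8 CPM in other barcodes, with 0 of 3 passing in either list.

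To place the members beside more narrowly chosen barcodes, they were set against 3 disjoint groups that also had the 6 genes at 0. Signalled barcodes (73 and 108) had more than 3 UMIs over NR4A3, TNFRSF9, TNFRSF4 and TNFRSF18. Mature-marker barcodes (74 and 91) had at least 3 UMIs over CD40LG, IL7R, CCR7 and S1PR1. Recombining barcodes (1198 and 1683) had at least 3 UMIs over RAG1, RAG2 and DNTT. Members took precedence, and 110 and 169 of them would also have met the recombining limit and 16 and 30 the mature one. At least 1 UMI of RAG1, RAG2 or DNTT was found in 9.59% and 9.26% of signalled and 12.2% and 6.59% of mature-marker barcodes. The shares of members, 23.0% and 27.2%, were higher than in either group. The genes behind any of these limits were left out of the fit, which covered 9236 genes. Genes that vary with them were kept, so their p-values are not independent of how the groups were chosen.

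Against recombining barcodes, 1817 genes passed (19.7%), 1071 higher (11.6%) and 746 lower (8.08%). The corepressor SKI had 193 and 176 CPM in members and 7.22 and 2.43 CPM in recombining barcodes (5.36 ± 0.31, adjusted p = 1.55e-11). DUSP16 had 230 and 182 CPM in members and 4.13 and 6.08 CPM in recombining barcodes (5.18 ± 0.34, adjusted p = 1.10e-10). EGR3 had 226 and 242 CPM in members and 10.3 and 8.52 CPM in recombining barcodes (4.65 ± 0.31, adjusted p = 1.57e-10). Each of these 3 genes was scarce in recombining barcodes of both libraries. LFNG, a sugar transferase that modifies Notch, had 112 and 126 CPM in members and 4.13 and 4.87 CPM in recombining barcodes (4.63 ± 0.33, adjusted p = 4.32e-10). MAF and LDB2 completed the 6 highest, on 6 and 3 UMIs and 6 and 0 UMIs in recombining barcodes.

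Lower in members were HMCN1, a matrix protein, at 89.9 and 49.3 CPM in members and 550 and 478 CPM in recombining barcodes (-3.00 ± 0.24, adjusted p = 2.08e-09), and the collectin COLEC10 (-3.30 ± 0.51, adjusted p = 2.89e-05). The aminopeptidase gene LVRN (-2.89), PPCDC of coenzyme A synthesis (-2.83), PLD5 (-2.70) and GRTP1 (-2.70) followed, each with an adjusted p of at most 1.79e-06. CD4 and CD8A, which had not passed against all other barcodes, were lower than in recombining barcodes. CD4 had 236 and 347 CPM in members and 560.0 and 676 CPM in recombining barcodes (-1.14 ± 0.14, adjusted p = 1.66e-06). CD8A had 176 and 211 CPM in members and 373 and 397 CPM in recombining barcodes (-1.04 ± 0.17, adjusted p = 4.70e-05). Of 17 genes of the selection response tested here 11 were higher and 0 lower (median 1.63, against 0.04 over all genes), and of 19 cytokine and JAK-STAT genes 10 were higher and 0 lower (median 0.71).

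Against signalled barcodes, 198 genes passed (2.14%), 110 higher (1.19%) and 88 lower (0.953%). With DESeq2's size factors in place of TMM the split was 78 higher and 100 lower. Lower in members were RASGEF1A, an activator of Ras, at 203 and 117 CPM in members and 1177 and 574 CPM in signalled barcodes (-2.36 ± 0.22, adjusted p = 6.30e-07), and IRF4, a factor induced by receptor signals, at 59.9 and 26.3 CPM in members and 263 and 215 CPM in signalled barcodes (-2.52 ± 0.39, adjusted p = 0.00038). EGR3, higher in members than in all other barcodes, was lower than in signalled barcodes, at 226 and 242 CPM in members and 617 and 1376 CPM in signalled barcodes (-2.07 ± 0.22, adjusted p = 1.98e-06). SAMD11 (-2.36), the cytokine receptor gene IL18R1 (-2.34) and AHR1A, an aryl hydrocarbon receptor (-2.17), were the others of the 6 lowest. Of 17 selection response genes, 0 were higher, 5 lower and 12 did not pass (median -0.95, against 0.08 over all genes). The 2 groups were split by their UMIs of NR4A3, TNFRSF9, TNFRSF4 and TNFRSF18, which respond to the same receptor signals. Lower values of such genes in members, EGR3 and IRF4 among them, are therefore not independent of how the groups were chosen.

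Higher in members than in signalled barcodes were EFNA5, an ephrin ligand, at 213 and 324 CPM in members and 91.4 and 53.8 CPM in signalled barcodes (2.08 ± 0.34, adjusted p = 0.00066), and HECW1, a ubiquitin ligase, at 261 and 273 CPM in members and 34.3 and 83.8 CPM in signalled barcodes (2.06 ± 0.35, adjusted p = 0.00084). ST3GAL5, which makes the ganglioside GM3, had 280 and 297 CPM in members and 0 and 102 CPM in signalled barcodes. IFT80, OTULIN and MAP1A, the rest of the 6, had 0 to 6 UMIs in signalled barcodes of each library. These values rest on few nuclei on the signalled side.

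Against mature-marker barcodes, 208 genes passed (2.25%), 136 higher (1.47%) and 72 lower (0.78%), and with DESeq2's size factors 105 higher and 90 lower. ADAMTS3, a secreted protease, had 420 and 310 CPM in members and 93.5 and 21.4 CPM in mature-marker barcodes (2.93 ± 0.38, adjusted p = 3.39e-05), and EFNA5 213 and 324 CPM in members and 52.0 and 21.4 CPM in mature-marker barcodes (3.13 ± 0.41, adjusted p = 4.88e-05). BMF, which promotes cell death, had 110 and 130 CPM in members and 2 UMIs in mature-marker barcodes of each library. TMEM59, CRISPLD2 and ITM2C had 0 UMIs in mature-marker barcodes of replicate 1 and 1 to 4 in replicate 2. EFNA5 was among the 6 highest against both groups.

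Lower in members than in mature-marker barcodes was FAM65B, an inhibitor of RhoA, at 98.2 and 95.3 CPM in members and 634 and 606 CPM in mature-marker barcodes (-2.56 ± 0.21, adjusted p = 1.19e-07). CDK14 had 120 and 127 CPM in members and 634 and 770.1 CPM in mature-marker barcodes (-2.40 ± 0.21, adjusted p = 1.40e-07), and PREX1, an activator of Rac, 291 and 240 CPM in members and 1059.9 and 977 CPM in mature-marker barcodes (-1.83 ± 0.20, adjusted p = 3.19e-06). The kinase STK10 (-1.96), the receptor P2RY8 (-1.93) and BF2, a class I histocompatibility gene (-1.86), were also lower. This comparison had far fewer nuclei on the mature-marker side than the one with recombining barcodes had, so the counts of genes are not comparable between them.

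Some genes of the lists above had an order across the 4 groups. The genes of this paragraph and of the next were chosen after their values were seen. CD5 had 340 and 510.4 CPM in members, 354 and 550.4 CPM in signalled, 218 and 492 CPM in mature-marker and 27.8 and 37.1 CPM in recombining barcodes. Members did not pass the test against signalled (adjusted p = 0.981) or mature-marker barcodes (adjusted p = 0.522) but did against recombining ones (3.68 ± 0.18, adjusted p = 1.58e-12). TOX likewise passed only against recombining barcodes of the 3 groups. SATB1 had 4438 and 5315 CPM in members, 1063 and 1908 CPM in signalled, 2442 and 2517 CPM in mature-marker and 4568 and 5128 CPM in recombining barcodes. Members exceeded the signalled (1.72 ± 0.15, adjusted p = 1.69e-07) and mature-marker groups (1.09 ± 0.14, adjusted p = 3.34e-05) and did not pass against the recombining group (-0.05 ± 0.12, adjusted p = 0.843).

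LEF1, a partner of TCF7, had 4455 and 4983 CPM in members, 3268 and 3344 CPM in signalled, 2172 and 2196 CPM in mature-marker and 8143 and 8449 CPM in recombining barcodes, and members passed against each group. FOXO1, which drives genes of naive T cells, had 273 and 238 CPM in members, 594 and 233 CPM in signalled, 696 and 642 CPM in mature-marker and 45.4 and 59.6 CPM in recombining barcodes. Members passed against mature-marker (-1.28 ± 0.23, adjusted p = 0.00131) and recombining barcodes (2.17 ± 0.22, adjusted p = 8.91e-08), not against signalled ones (adjusted p = 0.504). KLF2, the factor of thymic exit in mouse, had 28.3 and 19.7 CPM in members and 104 and 171 CPM in mature-marker barcodes (-2.47 ± 0.52, adjusted p = 0.00636). For LEF1 and FOXO1 the members lay between the recombining and the mature-marker levels.

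**Figure D5:**
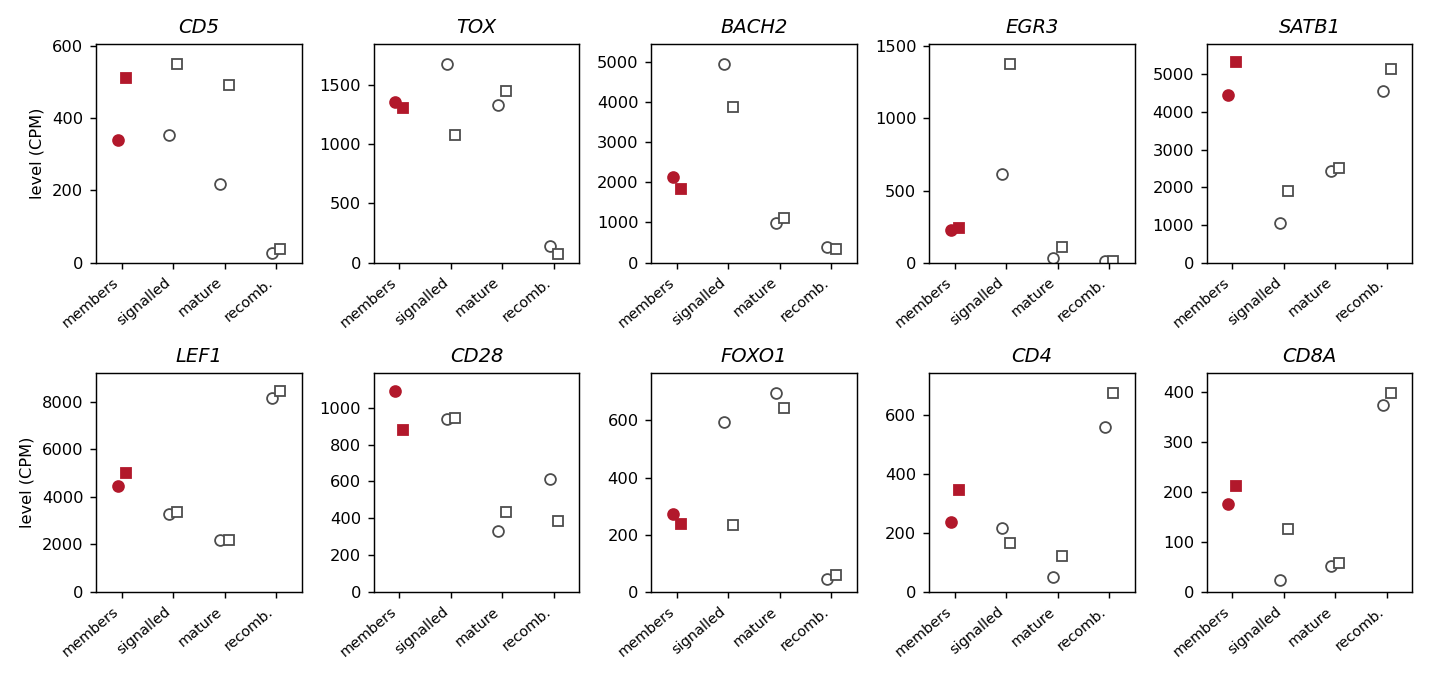
Levels (CPM) of 10 genes in members (filled) and in signalled, mature-marker and recombining (recomb.) barcodes (open), with circles for replicate 1 and squares for replicate 2. CD5 and TOX in members lie near signalled and mature-marker barcodes and far above recombining ones, SATB1 in members lies near recombining barcodes, and LEF1 in members (4455 and 4983 CPM) lies between mature-marker and recombining ones.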

How the data were processed

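The authors deposited UMI counts per gene and barcode for 2 single-nucleus libraries, with Cell Ranger 7.0.1 and Scanpy 1.9.1 named in the submitters' processing notes. The file names point to CellBender, a tool that removes ambient RNA, whose settings the labels do not state. Genes are those of GRCg7b, of which 12907 of 28951 carry a symbol. Nuclei with at least 200 genes were kept, members were chosen by the stated rule, and UMIs were summed per library and group. The members and gene lists were chosen with earlier results of these data known.

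Sums were tested with edgeR 4.0.16 in R 4.3.3 (quasi-likelihood, TMM scaling, filterByExpr, Benjamini-Hochberg at 0.05). Library was a block, because members and other barcodes came from the same library. The first fit had 4 sums and 1 residual degree of freedom, the fit of 5 groups 10 sums and 4. The prior degrees of freedom of the first fit were infinite, so a gene's own spread had no weight beside the spread pooled over genes. In the fit of 5 groups they were 18.4. Small p-values of the first fit are thus not a measure of how well the libraries agreed for that gene. The same limit holds for the printed SE, which was derived from the log2 fold change and the F statistic of the test. The 16 genes of the rule, and all 23 genes behind a limit in the 5-group fit, were left out of tests and library sizes. Printed CPM use all UMIs of a group. DESeq2 1.42.0 was an alternative.

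Named were the 12 highest and 12 lowest genes that passed with 1 direction in both libraries and at least 50 UMIs in each, 6 and 6 by the same rule per group comparison, and from each list up to 4 that passed, by size of change, and up to 2 abundant ones that did not. Genes named otherwise are marked as chosen after their values were seen. Doublets were scored against simulated ones with scikit-learn 1.9.0 and kept, and removed in an alternative. Scripts were tested on simulated data with a dispersion of 0.01, below the fitted 0.0205 of the first fit and 0.0278 of the fit of 5 groups. Of simulated log2 fold changes of 1, 53% were recovered against all other barcodes and 61% against recombining ones. The figures were 23% against signalled and 11% against mature-marker barcodes. Genes that did not pass against these 2 small groups may thus still differ. Members held 600679 and 913058 UMIs, other barcodes 3958432 and 5550364. Some results are not reported here.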

Additional observations from a re-analysis of the deposited data

How the results depend on the processing

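The members' share, 12.3% of barcodes, was 20.4% with a marker sum of at least 2 and 8.15% with at least 4. It was 9.73% with at least 2 different marker genes, 13.4% among barcodes with at least 400 genes and 11.6% without doublet-scored barcodes. When the rule followed thinning to 500 UMIs, 6.84% of the barcodes with at least 500 UMIs were members. The share was 6.51% with HIVEP3 left out of the marker sum, a setting chosen after the data were seen. With either library left out it was 11.9% to 12.8%. Against all other barcodes, 1807 genes passed, against 707 with DESeq2, 1187 with depth-matched others, 998 with HIVEP3 left out and 276 without the replicate block. The members and their comparison groups are paired because they come from the same library. Without that block 979 genes passed against recombining, 71 against signalled and 110 against mature-marker barcodes. Of 130 named genes 87 passed, all 87 with the same direction in each library, and 25 passed under every setting in which they were tested. The numbers named and the shared direction follow in part from how genes were named. Over all genes that passed, 561 of 569 higher and 1237 of 1238 lower ones had the same direction in both libraries. Not every gene had enough counts to be tested under each setting. The call was lost for 50 without the block, 33 with DESeq2, where RAG2 and TOP2A were among them, and 28 with HIVEP3 left out. A gene that had passed was counted as turned at any change of sign. A gene that had not passed was counted as turned only where it passed in the opposite direction. By that count, direction turned for BLK, which had not passed, to 1.28 against others within the same limits, where it passed as higher (adjusted p = 7.64e-05). It also turned for HBA1, which had passed, to 0.0304 with a marker sum of at least 2, where it did not pass (adjusted p = 0.974). For genes that had not passed, changes of sign without a pass were not counted. Among these were CD4 (0.20, adjusted p = 0.473) and CD8A (0.19, adjusted p = 0.586) with HIVEP3 left out. The cause was not tested. Leaving out a library gives values with no test.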

Other observations

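TMEM132A, CD6 and CD5 are consecutive genes on chromosome 5 of GRCg7b, with 1756 bases between TMEM132A and CD6, 1534 between CD6 and CD5, and 0 annotated genes in either gap. TMEM132A helped to choose the members, and CD5 and CD6 were among the 12 genes most raised in them. In the 502 and 552 members with 0 TMEM132A UMIs, CD5 stood at 320.0 and 451 CPM, against 86.9 and 137 CPM in other barcodes with 0 TMEM132A UMIs. CD6 stood at 60.3 and 84.3 CPM in those members and 20.4 and 26.1 CPM in those other barcodes. Whether reads of one gene were counted for its neighbour was not tested.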
